A study of Mus musculus with 20 samples.

Results

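The 39 genes described here mark the blood vessels of the brain, and they were picked by name from the 39056 genes in the count table. By the cells for which they are best known, 24 were grouped as endothelial, 10 as mural and 5 as found in several cell types. The endothelial genes code for 6 junction proteins, 5 receptors, 5 transporters and 8 surface or secreted proteins, and the mural genes are 7 of pericytes and 3 of smooth muscle. All 39 had enough counts to be tested.

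Left hippocampus of 20 female C57BL/6 mice, about a year old and perfused with saline after behavioural testing, was sequenced as 1 stranded mRNA library per mouse. Each of the 4 groups held 5 mice: WT Non-Tg (miR-34a+/+, no transgene), KO Non-Tg (miR-34a-/-, no transgene), WT Tg-SwDI (miR-34a+/+ with the transgene) and KO Tg-SwDI (miR-34a-/- with the transgene). The transgene is human APP with the Swedish, Dutch and Iowa mutations under the Thy1 promoter, which is active in neurons. Which cells the amyloid peptide came from was not measured here. The miR-34a knockout is constitutive and covers the whole body, so a difference between KO and WT mice need not arise in vessel cells. Both lines were crossed and littermates compared, but which mice shared a litter or a day is not given, and the p-values measure the spread between these mice.

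Brain endothelial cells form the blood-brain barrier: tight junctions seal the gaps between them, few vesicles cross them, and transporters carry glucose, lipids and hormones in while pumps push foreign compounds out. Pericytes wrap capillaries and signal to the endothelium, whereas smooth muscle cells ring arterioles and set their width. In Tg-SwDI mice the Dutch and Iowa mutations favour amyloid deposition on small vessels, which is why genes of the vessel wall are of interest in this strain.

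Each library held between 19549622 and 21066868 counts. Levels are given as CPM, each library's counts scaled to a common total by the TMM method, and the values of single mice follow the order of the mouse numbers in the library labels (2, 3, 4, 6 and 7 for WT Non-Tg, 1, 2, 4, 7 and 8 for KO Non-Tg, 3 to 7 for WT Tg-SwDI, 1, 2, 3, 5 and 8 for KO Tg-SwDI). The TMM factor was 0.901 for mouse 8 of KO Tg-SwDI, which raises its CPM values, and between 0.981 and 1.031 for the other libraries. Thy1, whose promoter drives the transgene, ranged from 685 to 769 CPM without the transgene and from 1905 to 3318 CPM with it, with no overlap. It ranged from 1905 to 2328 CPM in WT Tg-SwDI and from 2454 to 3318 CPM in KO Tg-SwDI mice, also with no overlap. The part of this difference in the values of KO against WT in Tg-SwDI mice was not tested. The 7 neuron genes listed summed to at least 5116 CPM in each library. A gene was called where its FDR, the p-value of edgeR's quasi-likelihood test after Benjamini-Hochberg adjustment over 16107 genes, was under 0.05, and log2 fold changes are given with their standard errors. The tissue is whole hippocampus, in which fewer cells of a type and less RNA per cell cannot be told apart.

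Tissue beside the hippocampus differed between the libraries, and its values are needed to read the vessel genes. Ttr, the main secreted protein of the choroid plexus, lay at 1691, 127, 2847, 29.8 and 3898 CPM in WT Non-Tg and 31.4, 277, 60.9, 152 and 85.7 CPM in KO Non-Tg mice. In WT Tg-SwDI mice Ttr lay at 3457, 3191, 2904, 3043 and 70.3 CPM, and in KO Tg-SwDI mice at 2011, 81.5, 2964, 3365 and 3554 CPM. Ttr was thus above 1000 CPM in 3 WT Non-Tg, 0 KO Non-Tg, 4 WT Tg-SwDI and 4 KO Tg-SwDI mice. The 15 choroid plexus genes listed summed to 310.1 to 6958 CPM in WT Non-Tg, 273 to 734 CPM among KO Non-Tg, 407 to 5825 CPM among WT Tg-SwDI and 422 to 5689 CPM among KO Tg-SwDI mice, and none of them was at 0 counts in any library. The 13 meningeal fibroblast genes listed summed to 205 to 502 CPM, 163 to 417 CPM, 173 to 411 CPM and 151 to 505 CPM in the same order of groups, with none at 0 counts. Several of the 39 genes are also expressed by these tissues: Slc2a1, Slco1c1, Bsg, Vcam1 and Plvap in the choroid plexus and its capillaries, and Acta2, Tagln, Myh11 and Fn1 in vessels or fibroblasts of the meninges.

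The deleted microRNA is shown first, because a vessel gene could be its direct target. The mature strand of miR-34a (chr4:150068473-150068494, plus strand, GRCm38.p6, RefSeq) is printed with its seed, bases 2 to 8, in capitals. Below it stand the matches to that seed in the annotated 3′ UTRs of 5 of the 39 genes (GENCODE M21, GRCm38), each in a window of 30 bases of the sense strand with the matching bases in capitals. For each gene only the UTR of a single representative transcript was searched, so matches in other transcripts would be missed.
mmu-miR-34a-5p: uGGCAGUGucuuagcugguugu
Tek, chr4:94874060-94874089, plus strand: tgtaccaagcaagccaccCACTGCCAagag
Mfsd2a, chr4:122947043-122947072, minus strand: gaccgctctgtcacctcctCACTGCCtgcc
Eng, chr2:32681791-32681820, plus strand: ggattacagaaagacacggCACTGCCgtgc
Tagln, chr9:45930192-45930221, minus strand: catcttaccccagagccacCACTGCCctgg
Esam, chr9:37538067-37538096, plus strand: tccaagggctctggaggagACTGCCAgtca

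Tek held an 8mer match (CACTGCCA), Mfsd2a, Eng and Tagln the 7mer CACTGCC, and Esam the 7mer ACTGCCA. Pdgfrb, whose sequence is not shown, held an 8mer and a 7mer. Thus 6 of 39 UTRs (15.4%) held a match of 7 or 8 bases, against 3206 of 14608 tested genes with an annotated UTR (21.9%), and an 8mer stood in 2 of 39 against 5.65%. The median UTR had 752 bases among the 39 genes and 1046 bases among all tested genes. In Tg-SwDI mice, the log2 fold changes of KO against WT for the genes with a match were 0.38 ± 0.11 for Tek, -0.39 ± 0.12 for Mfsd2a, 0.09 ± 0.07 for Eng, 0.55 ± 0.28 for Tagln, -0.08 ± 0.11 for Esam and 0.20 ± 0.08 for Pdgfrb, and none was called. In Non-Tg mice they were -0.09, 0.00, -0.21, 0.13, -0.02 and -0.04, again with none called. The 4 genes that were called for miR-34a loss in Tg-SwDI mice (Ly6c1, Itm2a, Gkn3 and Notch3) held no match in these UTRs.

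Per kilobase of exon, the mean level over the 20 mice was highest for Bsg at 237 CPM per kb, followed by Vtn at 32.8 and the glucose transporter Slc2a1 at 32.4. Rgs5 stood at 26.2 CPM per kb, Itm2a at 22.5, Ly6c1 at 16.4 and Cldn5 at 14.7. At the low end lay Icam2 at 0.909, Kcnj8 at 1.16, Vwf at 1.195, Icam1 at 1.203 and Abcc9 at 1.24 CPM per kb. Every gene of the list had counts in every library, the fewest being 17 for Gkn3 in 1 mouse.

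**Figure D1:**
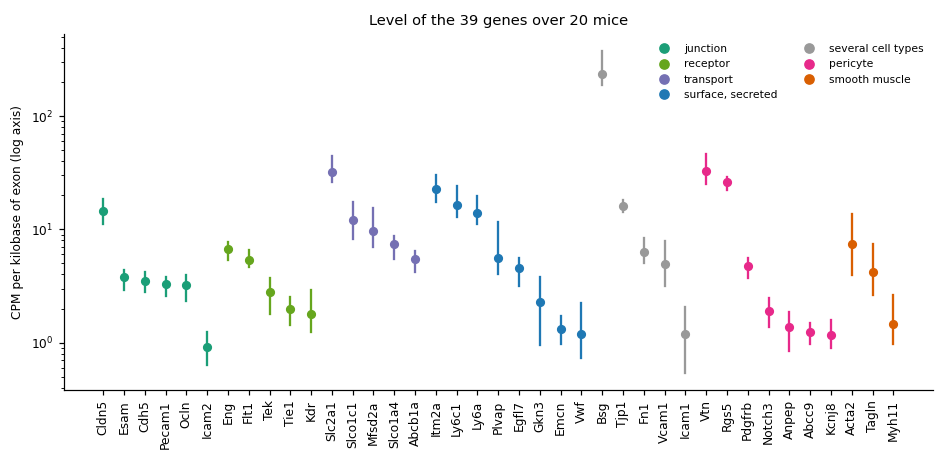
Mean level of each of the 39 genes in CPM per kilobase of exon on a log axis (points) with the range over 20 mice (lines), coloured by role. Bsg stands apart at 237 CPM per kb, and the other 38 genes lie between 0.909 (Icam2) and 32.8 (Vtn) CPM per kb.

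In Tg-SwDI mice, loss of miR-34a raised 4 of the 39 genes and lowered none: Ly6c1, Itm2a and Gkn3 of the endothelium and Notch3 of mural cells. Over all 16107 genes, 1.99% were called in that comparison and 1.48% were called higher. Without the transgene the same loss gave 0 calls among the 39 genes and 0% over all genes in edgeR's quasi-likelihood test, with 2 of the 39 genes at an unadjusted p under 0.05 and 1302 over all genes. In Non-Tg mice edgeR's exact test over all dispersions and DESeq2 also called 0 of the 39 genes, beside 4 and 7 over all genes, and the exact test within the compared groups called 0 beside 57. The transgene changed 6 of the 39 genes in WT mice, with 3 higher (Mfsd2a, Icam1, Abcc9) and 3 lower (Tek, Itm2a, Gkn3), beside 4.41% of all genes called, 3.94% higher and 0.466% lower. In KO mice it raised 10 genes and lowered none (Eng, Slc2a1, Ly6a, Ly6c1, Plvap, Bsg, Icam1, Vcam1, Abcc9 and Notch3), beside 20.8% of all genes called and 12.5% called higher. Averaged over WT and KO mice, the transgene raised Flt1, Slc2a1, Mfsd2a, Icam1 and Abcc9 and lowered Gkn3, 6 of 39 beside 17.2% of all genes. The interaction of transgene and miR-34a gave 0 calls among the 39 genes beside 0.608% of all genes in edgeR's quasi-likelihood test. An unadjusted p under 0.05 was found there for 14 of the 39 genes, beside 2821 of all 16107 genes. DESeq2 called 6 for the interaction (Tie1, Ly6a, Ly6c1, Itm2a, Gkn3 and Notch3), beside 2.99% of all genes. These comparisons share mice, so a gene that is high in a single group enters several of them. The direction over all genes depended on the scaling: 239 genes were called higher and 81 lower for miR-34a loss in Tg-SwDI mice after TMM scaling, against 102 and 115 with library size alone. For the transgene in KO mice the numbers were 2013 and 1338 against 1675 and 1792, and in the average 1828 and 938 against 1576 and 1233. Of the 39 genes, 4 were called higher for miR-34a loss in Tg-SwDI mice and 9 for the transgene in KO mice under library size alone too, with none lower.

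The median log2 fold change of the 39 genes was 0.19 for KO against WT in Tg-SwDI mice, with 30 of 39 above 0, and -0.04 in Non-Tg mice, with 9 above 0. For Tg-SwDI against Non-Tg it was -0.06 in WT mice and 0.18 in KO mice. Some of these numbers differed in fits with the choroid plexus or meningeal fibroblast level of each library as a covariate, or with mice left out. No KO Non-Tg library was high in choroid plexus genes, so the choroid plexus covariate cannot be fully told apart from that group. With the choroid plexus covariate, 21 of 39 genes were above 0 for miR-34a loss in Non-Tg mice (median 0.01), and the median for the transgene in KO mice was 0.07, with 23 above 0 in place of 34. In Non-Tg mice the number above 0 was 27 among libraries with Ttr below 1000 CPM, 18 without mouse 4 of WT Non-Tg and 4 without mouse 2 of KO Non-Tg. For miR-34a loss in Tg-SwDI mice 31 were above 0 with the choroid plexus covariate (median 0.20) and 30 with the meningeal covariate (median 0.12), and in the same comparison the meningeal fibroblast genes had a median of 0.49 (12 of 13 above 0) and the microglia genes 0.29 (12 of 12). The part of microglia in the values was not tested. The medians over all genes tested were between -0.01 and 0.01 in these contrasts. Groups of 5 mice did not overlap at all for 3 of the 39 genes between KO and WT in Tg-SwDI mice (3.16% of all genes), for 1 in Non-Tg mice (2.23%), for 4 between Tg-SwDI and Non-Tg in WT mice (6.69%) and for 5 in KO mice (12.8%).

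**Figure D2:**
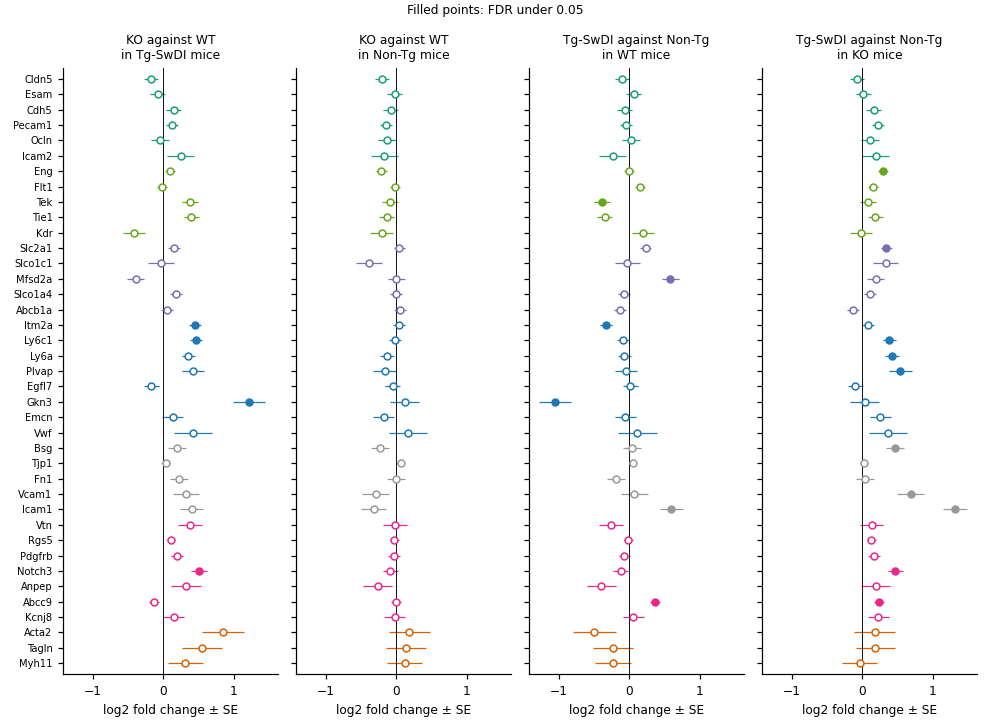
Log2 fold change ± SE of each of the 39 genes in the 4 comparisons of groups, filled where the FDR was under 0.05 and coloured by role in the order junction, receptor, transport, surface or secreted, several cell types, pericyte and smooth muscle from top to bottom. Most points of KO against WT in Tg-SwDI mice lie right of 0 (30 of 39), and in Non-Tg mice 9 of 39 do, a number that becomes 21 with the choroid plexus covariate.

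The 6 junction genes were called in none of the comparisons. Cldn5, the main claudin of the barrier's tight junctions (chr16:18776847-18778262), lay at 23.9, 19.8, 24.05, 21.8 and 25.1 CPM in WT Non-Tg mice and at 20.9, 20.2, 19.6, 19.2 and 19.5 CPM in KO Non-Tg mice. It lay at 16.5, 20.2, 26.3, 22.1 and 21.6 CPM in WT Tg-SwDI and at 20.8, 16.2, 22.8, 18.6 and 15.9 CPM in KO Tg-SwDI mice. All 4 groups overlapped, and the log2 fold change was -0.18 ± 0.10, FDR = 0.362 for KO against WT in Tg-SwDI mice and -0.11 ± 0.10, FDR = 0.699 for the transgene in WT mice. Pecam1, an adhesion molecule at endothelial contacts (chr11:106654217-106750628), lay at 20.8, 20.03, 23.4, 19.5 and 21.96 CPM in WT Non-Tg and 20.9, 21.2, 16.4, 20.4 and 16.2 CPM in KO Non-Tg mice. In the transgenic mice Pecam1 stood at 16.9, 20.9, 21.3, 23.6 and 19.2 CPM (WT) and 21.6, 21.9, 23.7, 20.8 and 22.7 CPM (KO). The groups overlapped for Pecam1, and its lowest FDR was 0.0717 for the transgene in KO mice, where the log2 fold change was 0.22 ± 0.09. Occludin (Ocln), VE-cadherin (Cdh5), Esam and Icam2, which seal or hold together endothelial cells, had log2 fold changes between -0.24 and 0.25 in the 4 comparisons of groups.

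Of the 5 receptors, Tek and Eng were each called in a single comparison of groups. Tek (Tie2), the angiopoietin receptor that keeps endothelium quiescent (chr4:94739289-94874976), lay at 13.9, 11.4, 17.6, 14.3 and 13.7 CPM in WT Non-Tg and 14.1, 13.8, 12.98, 12.5 and 13.1 CPM in KO Non-Tg mice. It was lower in WT Tg-SwDI mice, at 10.9, 8.37, 10.7, 13.9 and 10.1 CPM, than in KO Tg-SwDI mice, at 14.7, 14.2, 15.1, 14.6 and 11.5 CPM. The transgene lowered Tek in WT mice (log2 fold change -0.39 ± 0.11, FDR = 0.0396), with overlapping groups, and this call was lost when any of 7 of the 20 mice was left out. KO against WT in Tg-SwDI mice gave 0.38 ± 0.11, FDR = 0.0709 for Tek and 0.39 ± 0.11, FDR = 0.0527 for Tie1, its partner receptor. DESeq2 called both in this comparison (FDR = 0.0309 for Tek and 0.0171 for Tie1). The exact test over all dispersions called Tie1 (FDR = 0.0417) and not Tek. Neither was called with the replicate block or in the libraries with Ttr above 1000 CPM. Tie1 stood at 11.6, 10.2, 11.4, 9.25 and 10.1 CPM in WT Non-Tg, 10.1, 10.9, 8.88, 9.02 and 8.76 CPM in KO Non-Tg, 8.26, 7.28, 8.44, 10.3 and 6.98 CPM in WT Tg-SwDI and 11.5, 11.01, 12.3, 10.5 and 8.81 CPM in KO Tg-SwDI mice, so its mean was lowest in WT Tg-SwDI mice as well, with overlap.

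Endoglin (Eng), a TGF-beta co-receptor of endothelium (chr2:32646595-32682669), lay at 30.8, 25.9, 28.2, 27.2 and 25.8 CPM in WT Non-Tg, 27.2, 24.2, 22.9, 23.1 and 21.7 CPM in KO Non-Tg, 29.01, 23.9, 29.2, 30.1 and 25.2 CPM in WT Tg-SwDI and 31.1, 29.8, 28.2, 30.3 and 26.5 CPM in KO Tg-SwDI mice. The transgene raised Eng in KO mice (log2 fold change 0.29 ± 0.07, FDR = 0.00505), where a KO Non-Tg mouse at 27.2 CPM lay above the lowest KO Tg-SwDI mouse at 26.5 CPM. With the choroid plexus level of each library as a covariate the log2 fold change of Eng was 0.27, FDR = 0.0613. Flt1, a receptor that traps VEGF (chr5:147561604-147726011), lay at 70.9, 64.7, 73.3, 65.1 and 73.6 CPM in WT Non-Tg and 74.9, 75.2, 65.2, 63.1 and 65.01 CPM in KO Non-Tg mice. In Tg-SwDI mice it lay at 78.8, 67.8, 73.5, 88.1 and 76.5 CPM (WT) and 79.6, 84.8, 77.1, 73.8 and 65.1 CPM (KO). Flt1 rose with the transgene in the average over WT and KO mice (log2 fold change 0.15 ± 0.05, FDR = 0.0458), a call lost on leaving out any of 12 of the 20 mice. Kdr, the main VEGF receptor, ranged from 11.1 to 26.4 CPM within WT Tg-SwDI mice and was called in no comparison (KO against WT in Tg-SwDI mice -0.42 ± 0.16, FDR = 0.159).

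Among the 5 transporters, Mfsd2a and Slc2a1 rose with the transgene. Mfsd2a carries lysolipids with omega-3 fatty acids into the brain and keeps vesicle traffic low (chr4:122946850-122961188), and it lay at 16.6, 18.2, 19.3, 21.04 and 19.9 CPM in WT Non-Tg and 18.6, 21.5, 16.7, 21.97 and 16.01 CPM in KO Non-Tg mice. It lay at 24.2, 34.7, 25.4, 28.2 and 29.3 CPM in WT Tg-SwDI and 20.4, 21.8, 27.5, 22.5 and 15.7 CPM in KO Tg-SwDI mice. Each of the 5 WT Tg-SwDI mice was above each WT Non-Tg mouse. The log2 fold change of Mfsd2a for the transgene was 0.58 ± 0.12, FDR = 0.00428 in WT mice and 0.19 ± 0.12, FDR = 0.305 in KO mice, and the difference between them gave -0.39 ± 0.17, FDR = 0.252.

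Slc2a1, the glucose transporter of the barrier (chr4:119108711-119137983), lay at 103, 99.03, 105, 94.9 and 103 CPM in WT Non-Tg and 106, 119, 98.3, 105 and 91.6 CPM in KO Non-Tg mice. In Tg-SwDI mice its values were 107, 142, 104, 117 and 121 CPM (WT) and 124, 122, 157, 136 and 118 CPM (KO). Only the lowest KO Tg-SwDI mouse overlapped with the highest KO Non-Tg mouse, and the transgene raised Slc2a1 in KO mice (0.34 ± 0.08, FDR = 0.00481) and in the average over WT and KO mice (0.28 ± 0.06, FDR = 0.00109). With the choroid plexus covariate the value in KO mice was 0.28, FDR = 0.0851, while the average remained called under each of the 29 alternatives run for it beside the replicate block. The drug efflux pump Abcb1a and the organic anion carriers Slco1a4 and Slco1c1 were called in no comparison, with ranges over the 20 mice of 22.9 to 34.9 CPM for Abcb1a and 35.2 to 56.5 CPM for Slco1a4. Slco1c1, which brings in thyroid hormone and is also made by the choroid plexus, stood in WT Non-Tg mice at 64.6, 49.6, 80.3, 56.4 and 90.9 CPM, highest in the 3 mice with Ttr above 1000 CPM.

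The 8 surface and secreted genes held most of the calls for miR-34a loss. Ly6c1, a GPI-anchored surface protein of capillary endothelium (chr15:75044018-75048830), lay at 26.1, 23.6, 27.8, 26.1 and 26.97 CPM in WT Non-Tg, 26.1, 27.4, 24.4, 27.5 and 23.8 CPM in KO Non-Tg and 23.3, 27.2, 26.4, 23.7 and 21.8 CPM in WT Tg-SwDI mice. It lay at 31.7, 27.3, 38.5, 30.7 and 40.3 CPM in KO Tg-SwDI mice, each above each WT Tg-SwDI mouse. Loss of miR-34a in Tg-SwDI mice raised Ly6c1 by a log2 of 0.46 ± 0.09, FDR = 0.00701, the transgene in KO mice by 0.38 ± 0.09, FDR = 0.0022, and the interaction was 0.48 ± 0.12, FDR = 0.0607. The Ly6c1 call for miR-34a loss was lost in the quasi-likelihood fit of the WT and KO Tg-SwDI groups alone. Over the alternatives beside the replicate block, its log2 fold change for miR-34a loss stayed between 0.33 and 0.54. Ly6a (Sca-1), a related protein coded on the same chromosome (chr15:74994877-74998031), stood at 15.3, 14.6, 16.4, 16.6 and 18.9 CPM in WT Non-Tg, 14.2, 17.5, 13.8, 15.5 and 13.4 CPM in KO Non-Tg, 14.6, 15.99, 18.2, 14.5 and 14.6 CPM in WT Tg-SwDI and 21.7, 16.2, 23.5, 18.5 and 19.3 CPM in KO Tg-SwDI mice. The transgene raised Ly6a in KO mice (0.42 ± 0.10, FDR = 0.00273), and KO against WT in Tg-SwDI mice gave 0.35 ± 0.10, FDR = 0.0527. For the latter, Ly6a was called by the exact test over all dispersions (FDR = 0.0377) and by DESeq2 (FDR = 0.0201). It was called with the choroid plexus covariate too (FDR = 0.0281), but not with the replicate block or in the libraries with Ttr above 1000 CPM. In the 5 KO Tg-SwDI mice the 12 interferon-stimulated genes listed summed to 59.2 to 222 CPM, against 40.03 to 76.4, 41.3 to 80.2 and 61.6 to 80.2 CPM in WT Non-Tg, KO Non-Tg and WT Tg-SwDI mice, none at 0 counts in any library. The interferon-stimulated level of the KO Tg-SwDI mice was 1.71, 0.83, 1.47, 1.56 and -0.24 on the centred log2 scale, in the order of their Ly6c1 values above. Mouse 8 had the lowest level and the highest Ly6c1 value, and mouse 2 had the next lowest level and the lowest Ly6c1 value. The part of interferon signalling, and of close relatives in the Ly6 family that could share reads, in the Ly6 values was not tested. In the fit with the choroid plexus covariate, the transgene in KO mice gave 0.23, FDR = 0.141 for Ly6c1 and 0.29, FDR = 0.113 for Ly6a, while KO against WT in Tg-SwDI mice gave 0.47, FDR = 0.00159 for Ly6c1.

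Itm2a, a membrane protein enriched in brain endothelium (chrX:107397099-107403376), lay at 36.1, 39.2, 43.9, 39.7 and 42.9 CPM in WT Non-Tg and 45.3, 36.9, 43.4, 42.7 and 38.3 CPM in KO Non-Tg mice. It lay at 30.5, 32.9, 33.3, 31.8 and 31.2 CPM in WT Tg-SwDI and 42.2, 43.8, 52.5, 45.8 and 33.04 CPM in KO Tg-SwDI mice. The 5 WT Tg-SwDI mice were all below the 5 WT Non-Tg mice, while mouse 8 of KO Tg-SwDI lay within the WT Tg-SwDI range and the other KO Tg-SwDI mice lay above it. The transgene lowered Itm2a in WT mice (-0.34 ± 0.09, FDR = 0.0172), not past the threshold without mouse 4 of WT Non-Tg (FDR = 0.0582), and miR-34a loss raised it in Tg-SwDI mice (0.45 ± 0.09, FDR = 0.00908). The interaction was 0.41 ± 0.12, FDR = 0.0943.

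Gkn3, a secreted protein known from arterial endothelium of the brain (chr6:87383256-87388935), had few counts, from 17 upward, and the largest fold change of the list for miR-34a loss in Tg-SwDI mice. It lay at 2.27, 1.98, 2.16, 2.45 and 1.81 CPM in WT Non-Tg and 2.77, 3.27, 2.22, 1.68 and 1.64 CPM in KO Non-Tg mice. In WT Tg-SwDI mice it lay at 1.03, 0.851, 0.982, 1.45 and 0.813 CPM and in KO Tg-SwDI mice at 2.18, 1.98, 3.04, 1.54 and 3.14 CPM. The WT Tg-SwDI mice did not overlap with WT Non-Tg or KO Tg-SwDI mice. The transgene lowered Gkn3 in WT mice (log2 fold change -1.05 ± 0.23, FDR = 0.00382), miR-34a loss raised it in Tg-SwDI mice by 1.21 ± 0.23, FDR = 0.00701, and the transgene in KO mice gave 0.03 ± 0.20, FDR = 0.931. The interaction of 1.09 ± 0.31, FDR = 0.0854 did not pass the threshold.

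Plvap, the diaphragm protein of fenestrated capillaries, which the barrier normally lacks and the choroid plexus has (chr8:71497765-71511752), lay at 10.5, 10.4, 11.7, 10.3 and 10.2 CPM in WT Non-Tg and 9.902, 10.1, 7.96, 9.59 and 9.67 CPM in KO Non-Tg mice. It lay at 10.8, 11.7, 9.13, 9.81 and 9.85 CPM in WT Tg-SwDI and 13.3, 10.2, 10.7, 11.4 and 23.02 CPM in KO Tg-SwDI mice. Mouse 8 of KO Tg-SwDI stood far above the others, and its Ttr was the highest of its group at 3554 CPM. Mouse 7 of WT Non-Tg, with Ttr at 3898 CPM, had the lowest Plvap of its group at 10.2 CPM. The part of the choroid plexus in the Plvap value of mouse 8 was not tested. The transgene raised Plvap in KO mice (0.54 ± 0.16, FDR = 0.0203); without that mouse the value was 0.28, FDR = 0.0362, and with the choroid plexus covariate it was 0.39, FDR = 0.278. Without mouse 4 of KO Non-Tg the FDR was 0.0569. Vwf, the clotting factor stored in endothelium, Egfl7 and Emcn were called in no comparison, with ranges of 11.3 to 19.9 CPM for Egfl7, 5.31 to 9.31 CPM for Emcn and 11.8 to 35.7 CPM for Vwf over the 20 mice, Vwf being highest in mouse 2 of KO Non-Tg.

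**Figure D3:**
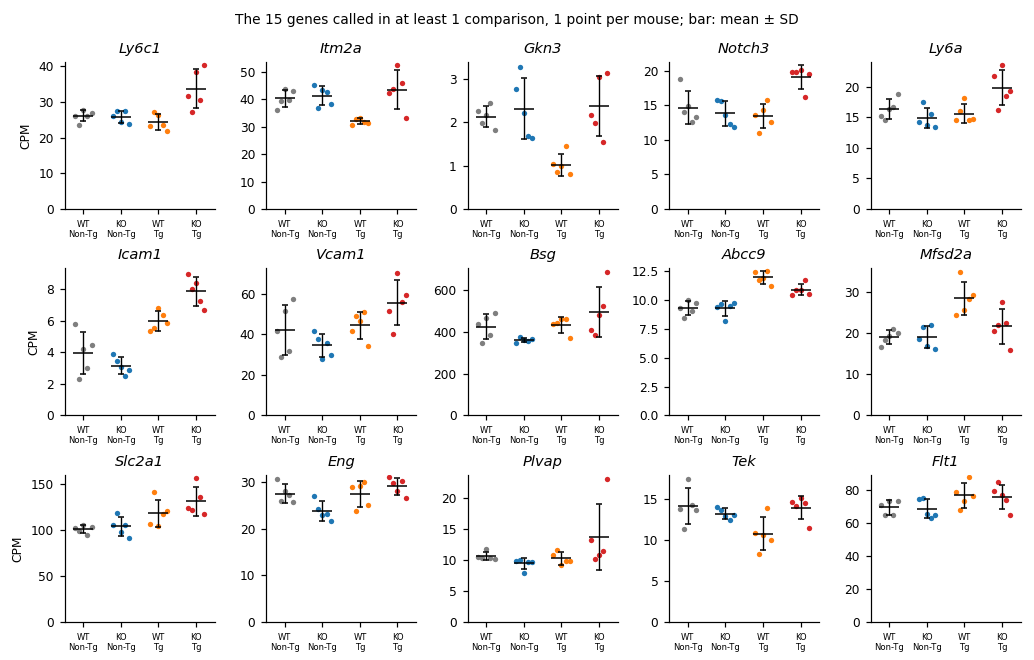
CPM per mouse (1 point each, ordered by mouse number within a group) with the mean ± SD of 5 mice for the 15 genes called in at least 1 comparison; axes start at 0. The means of Gkn3, Itm2a and Tek, among others, are lowest in WT Tg-SwDI mice. Those of Ly6c1 and Notch3, like those of most genes shown, are highest in KO Tg-SwDI mice. Those of Icam1 and Abcc9, among others, are higher in both Tg-SwDI groups than in the Non-Tg groups.

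Of the 5 genes found in several cell types, Icam1 showed the clearest difference. Icam1 is the adhesion molecule by which inflamed endothelium holds leukocytes, and microglia and astrocytes also make it (chr9:21015985-21028817). It lay at 5.77, 2.33, 4.23, 2.999 and 4.44 CPM in WT Non-Tg and 3.92, 3.46, 3.04, 2.49 and 2.902 CPM in KO Non-Tg mice. In WT Tg-SwDI mice it lay at 5.35, 5.53, 6.82, 6.38 and 5.84 CPM and in KO Tg-SwDI mice at 8.99, 8.03, 8.41, 7.28 and 6.66 CPM. Each KO Tg-SwDI mouse was above each Non-Tg mouse, whereas mouse 2 of WT Non-Tg overlapped with WT Tg-SwDI mice. The transgene raised Icam1 in KO mice by a log2 of 1.32 ± 0.17, FDR = 1.69e-06, in WT mice by 0.59 ± 0.17, FDR = 0.0372 and in the average by 0.95 ± 0.12, FDR = 8.22e-07; the interaction was 0.72 ± 0.24, FDR = 0.127. The call in KO mice remained under each of the 32 alternatives run for it beside the replicate block, among them the choroid plexus covariate (1.15, FDR = 1.04e-04). The call in WT mice was lost on leaving out any of 7 mice and in the libraries with Ttr above 1000 CPM. It was also lost with library size alone and in the quasi-likelihood fit of the compared groups alone. Over the alternatives beside the replicate block, the log2 fold change in WT mice ranged from 0.32 to 1.12. The 12 microglia genes listed were all called higher with the transgene in WT and in KO mice, and summed to 405 to 507 CPM in WT Non-Tg, 406 to 437 CPM among KO Non-Tg, 780.3 to 929 CPM among WT Tg-SwDI and 943 to 1264 CPM among KO Tg-SwDI mice, none at 0 counts. Their part in the Icam1 values was not tested.

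The promoter of Icam1 is shown because Icam1 is the gene of the list that rose with the transgene in WT mice, in KO mice and in the average with the largest fold change. The window runs from 250 bases before to 50 bases after the annotated start (chr9:21015690-21015989, plus strand, GRCm38.p6, RefSeq), and the motif GGAAATTCC, a binding sequence of NF-kappaB, stands in capitals at bases -153 to -145 from the start.
Icam1 promoter: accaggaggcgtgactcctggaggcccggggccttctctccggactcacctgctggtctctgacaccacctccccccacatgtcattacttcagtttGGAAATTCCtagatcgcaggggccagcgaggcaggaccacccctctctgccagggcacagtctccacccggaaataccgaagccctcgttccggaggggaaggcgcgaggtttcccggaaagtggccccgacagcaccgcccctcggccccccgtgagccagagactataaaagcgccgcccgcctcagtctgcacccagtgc

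On either strand, GGAAATTCC stood in 104 of 32851 promoters of the same length (0.317%) and in 1 of the 26 vessel genes whose promoter was in the table, Icam1. TTCNNNGAA, a STAT motif, stood in 8.3% of promoters and in those of Icam1 (bases -42 to -34, apart from the first motif), Notch3 and Vtn. These matches are a description of letters in the window.

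Vcam1, another leukocyte adhesion molecule that choroid plexus and astrocytes also express (chr3:116109949-116129688), lay at 41.5, 29.01, 51.7, 31.99 and 57.5 CPM in WT Non-Tg and 41.7, 37.6, 27.9, 35.9 and 29.9 CPM in KO Non-Tg mice. It lay at 41.5, 48.9, 46.6, 50.9 and 34.1 CPM in WT Tg-SwDI and 51.7, 40.1, 70.5, 56.1 and 59.4 CPM in KO Tg-SwDI mice. Within the WT Non-Tg group the 3 mice with Ttr above 1000 CPM were the 3 highest. The transgene raised Vcam1 in KO mice (0.68 ± 0.19, FDR = 0.0173), and the value with the choroid plexus covariate was 0.25, FDR = 0.313.

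Basigin (Bsg), a chaperone of lactate transporters present in endothelium, choroid plexus and neurons (chr10:79704491-79711969), lay at 437, 346, 466, 384 and 491 CPM in WT Non-Tg and 345, 375, 361, 357 and 365 CPM in KO Non-Tg mice. In Tg-SwDI mice it lay at 439, 442, 462, 463 and 369 CPM (WT) and 410.5, 385, 479, 522 and 687 CPM (KO). The KO Tg-SwDI mice were all above the KO Non-Tg mice, and mouse 7 of WT Tg-SwDI and mouse 2 of KO Tg-SwDI, whose Ttr was below 1000 CPM, were lowest in their groups. The transgene raised Bsg in KO mice (0.46 ± 0.12, FDR = 0.0136), against 0.18, FDR = 0.305 with the choroid plexus covariate. Tjp1 (ZO-1), the scaffold of tight junctions, and fibronectin (Fn1) were called in no comparison. Tjp1 ranged from 111 to 141 CPM over the 20 mice and Fn1 from 59.02 to 97.2 CPM.

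Of the 7 pericyte genes, Abcc9 and Notch3 were called. Abcc9, a subunit of the potassium channel of pericytes (chr6:142587862-142702315), lay at 9.32, 8.43, 10.003, 9.05 and 9.74 CPM in WT Non-Tg and 9.42, 9.63, 8.16, 9.45 and 9.72 CPM in KO Non-Tg mice. It lay at 12.4, 11.7, 11.9, 12.5 and 11.2 CPM in WT Tg-SwDI and 10.5, 10.9, 10.9, 11.7 and 10.5 CPM in KO Tg-SwDI mice. All Tg-SwDI mice were above all Non-Tg mice. The log2 fold change of Abcc9 with the transgene was 0.36 ± 0.07, FDR = 0.00167 in WT mice, 0.23 ± 0.07, FDR = 0.0266 in KO mice and 0.30 ± 0.05, FDR = 1.21e-04 in the average. In KO mice Abcc9 gave 0.16, FDR = 0.322 with the choroid plexus covariate, and the FDR was 0.088 or 0.0526 without mouse 4 of KO Non-Tg or mouse 5 of KO Tg-SwDI. Kcnj8, the pore of the same channel, gave 0.05 ± 0.15, FDR = 0.922 in WT mice and 0.22 ± 0.15, FDR = 0.307 in KO mice, and was not called.

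Notch3, the receptor by which mural cells receive Notch signals from endothelium (chr17:32120820-32166852), lay at 18.8, 13.98, 14.9, 12.5 and 13.3 CPM in WT Non-Tg and 15.8, 15.7, 13.6, 12.3 and 11.9 CPM in KO Non-Tg mice. It lay at 13.7, 11.02, 14.3, 15.8 and 12.6 CPM in WT Tg-SwDI and 19.9, 19.9, 20.2, 16.2 and 19.6 CPM in KO Tg-SwDI mice. The KO Tg-SwDI mice were above both the WT Tg-SwDI and the KO Non-Tg mice, whereas mouse 2 of WT Non-Tg reached 18.8 CPM. Loss of miR-34a in Tg-SwDI mice raised Notch3 by a log2 of 0.51 ± 0.11, FDR = 0.0167 and the transgene in KO mice by 0.47 ± 0.11, FDR = 0.00302; the interaction was 0.59 ± 0.15, FDR = 0.0641. Without mouse 7 of WT Tg-SwDI the FDR for miR-34a loss was 0.0594, and with the choroid plexus covariate the transgene gave 0.40, FDR = 0.0553. Over 32 alternatives beside the replicate block, the log2 fold change of Notch3 with the transgene in KO mice stayed between 0.40 and 0.53. Pdgfrb, the receptor that recruits and maintains pericytes (chr18:61045150-61085061), lay at 29.03, 23.9, 28.3, 22.3 and 26.5 CPM in WT Non-Tg, 28.2, 28.8, 25.7, 20.4 and 23.7 CPM in KO Non-Tg, 23.9, 23.6, 24.2, 28.02 and 24.1 CPM in WT Tg-SwDI and 27.4, 30.4, 26.96, 27.6 and 29.6 CPM in KO Tg-SwDI mice. It was not called in any comparison, with 0.20 ± 0.08, FDR = 0.201 for KO against WT in Tg-SwDI mice. Rgs5, Anpep and Vtn, further pericyte genes, were not called. Over the 20 mice Rgs5 ranged from 100.3 to 131 CPM, Anpep from 3.5004 to 7.75 CPM and Vtn from 51.3 to 93.4 CPM.

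None of the 3 smooth muscle genes was called in edgeR's quasi-likelihood test. Acta2, smooth muscle actin (chr19:34241090-34255590), lay at 13.9, 13.2, 22.5, 12.2 and 17.6 CPM in WT Non-Tg and 25.6, 30.2, 13.1, 10.2 and 10.98 CPM in KO Non-Tg mice. It lay at 11.9, 11.1, 9.13, 15.5 and 8.75 CPM in WT Tg-SwDI and 17.1, 15.4, 26.4, 21.5 and 20.98 CPM in KO Tg-SwDI mice. The WT and KO Tg-SwDI mice overlapped only at 15.5 and 15.4 CPM. KO against WT in Tg-SwDI mice gave 0.85 ± 0.30, FDR = 0.137 for Acta2, 0.55 ± 0.28, FDR = 0.308 for Tagln and 0.31 ± 0.25, FDR = 0.535 for Myh11. In KO Non-Tg mice the Acta2 values of mice 1 and 2 were above 25 CPM and those of the others below 14 CPM, and the meningeal fibroblast level of mice 1 and 2 was 0.78 and 0.56 on the centred log2 scale, against -0.64, -0.50 and -0.55 in the others. With the meningeal fibroblast level as a covariate, KO against WT in Tg-SwDI mice gave 0.58, FDR = 0.0308 for Acta2, past the threshold. The exact test within the compared groups called Acta2 (0.85, FDR = 6.95e-04) and Tagln (0.55, FDR = 0.0475) there. Dcn, a fibroblast proteoglycan, lay at 37.4 to 85.1 CPM over the 20 mice.

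**Figure D4:**
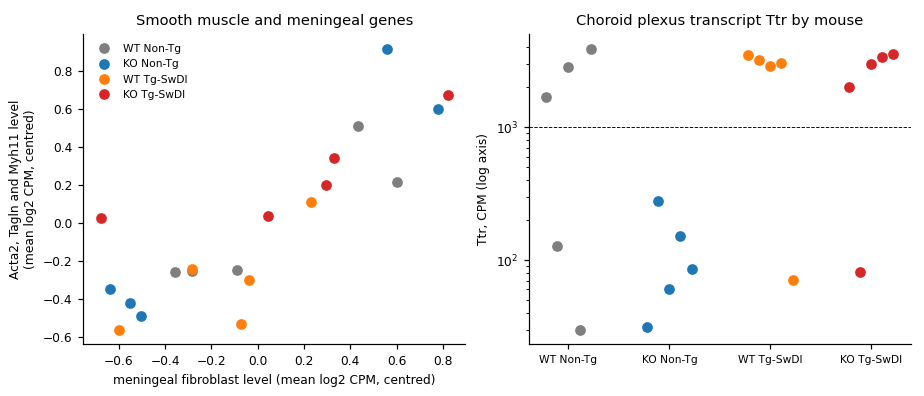
Left, level of Acta2, Tagln and Myh11 against the level of 13 meningeal fibroblast genes, both as mean log2 CPM centred on 20 mice, 1 point per mouse; right, Ttr per mouse in CPM on a log axis with a dashed line at 1000 CPM. Mice 1 and 2 of KO Non-Tg and mouse 3 of KO Tg-SwDI are the 3 highest for smooth muscle and lie above 0.5 on the meningeal axis. Mouse 7 of WT Non-Tg also lies above 0.5 on that axis (0.60), with a smooth muscle level of 0.22. Ttr is below 1000 CPM in all 5 KO Non-Tg mice.

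Within the 8 Tg-SwDI libraries with Ttr above 1000 CPM, 4 WT and 4 KO, the log2 fold change of KO against WT was 0.50, FDR = 0.0379 for Ly6c1, 0.44, FDR = 0.108 for Itm2a, 1.20, FDR = 0.0641 for Gkn3 and 0.48, FDR = 0.119 for Notch3, a split chosen after seeing the data. Their size was thus close to that over all mice, and Ly6c1 alone of them passed the threshold in this smaller fit. For the transgene in KO mice no such split of high-Ttr libraries could be made, since no KO Non-Tg library was above 1000 CPM. With the choroid plexus covariate, 1 of the 10 genes called there, Icam1, remained called. In the libraries with Ttr below 1000 CPM, 5 KO Non-Tg and 1 KO Tg-SwDI, the transgene gave 1.34, FDR = 2.73e-04 for Icam1, 0.52, FDR = 0.0278 for Notch3, 0.32, FDR = 0.0704 for Eng and 0.22, FDR = 0.388 for Abcc9, close in size to the values over all mice. It gave smaller values of 0.08, FDR = 0.769 for Ly6c1, 0.12, FDR = 0.695 for Ly6a, 0.09, FDR = 0.468 for Bsg, 0.21, FDR = 0.667 for Vcam1, 0.11, FDR = 0.739 for Plvap and 0.23, FDR = 0.248 for Slc2a1. The single KO Tg-SwDI library was assumed to vary like the other groups.

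As a description of the endothelial against the mural genes, the mean log2 CPM of each class was centred on the 20 mice. The endothelial level was 0.02 ± 0.12 (SD, n = 5) in WT Non-Tg, -0.07 ± 0.11 among KO Non-Tg, -0.05 ± 0.10 among WT Tg-SwDI and 0.10 ± 0.11 among KO Tg-SwDI mice. The mural level was 0.00 ± 0.17, -0.04 ± 0.33, -0.14 ± 0.14 and 0.18 ± 0.13 in the same order. The difference of endothelial minus mural level was 0.02 ± 0.08, -0.03 ± 0.23, 0.08 ± 0.08 and -0.08 ± 0.09, and its ranges overlapped between all groups. Within the mural genes, the pericyte level was -0.06 ± 0.09 in WT Tg-SwDI and 0.15 ± 0.07 among KO Tg-SwDI mice, and the smooth muscle level had an SD of 0.66 in KO Non-Tg mice against 0.27 in each Tg-SwDI group.

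**Figure D5:**
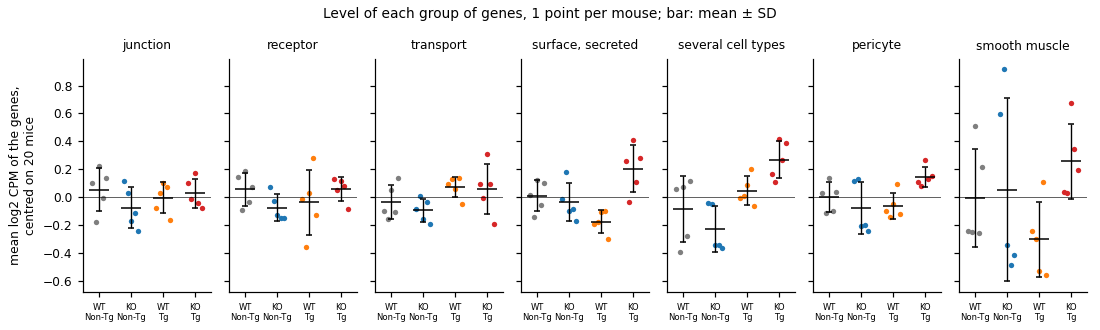
Mean log2 CPM of the genes of each role, centred on 20 mice, 1 point per mouse with the mean ± SD of 5 mice. The surface and secreted genes are highest in KO Tg-SwDI mice (0.20 ± 0.17) and lowest in WT Tg-SwDI mice (-0.18 ± 0.08), and the smooth muscle genes have the widest spread within groups.

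Other genes of the same cells and pathways were taken from lists made for this purpose, and their calls in KO mice rest on the same libraries with unequal choroid plexus content. Over all genes, 1.99% were called for miR-34a loss in Tg-SwDI mice (1.48% higher) and 4.41% with the transgene in WT mice (3.94% higher). With the transgene in KO mice it was 20.8% (12.5% higher), beside 24.1% of barrier and Wnt and 50% of vessel signalling genes. In that comparison the shares were 27.3% of inflamed endothelium, 16.7% of endothelial identity, other pericyte and basement membrane, 10% of arterial and 7.69% of other smooth muscle genes. Over the alternatives run beside the replicate block, the number called with the transgene in KO mice ranged from 3 to 10 for barrier and Wnt genes, 3 to 7 for vessel signalling, 2 to 4 for endothelial identity and 0 to 2 for other smooth muscle genes. For miR-34a loss in Tg-SwDI mice the lowest number was 0 in each of these lists. Of 18 further endothelial identity genes, 1 was called higher for KO against WT in Tg-SwDI mice, 3 higher with the transgene in WT mice and 3 higher in KO mice, and none lower. Cd34, a sialomucin of endothelium that other cells also carry, gave 0.30, FDR = 7.33e-04 in WT and 0.57, FDR = 1.54e-08 in KO mice, and the transcription factor Fli1, which microglia also express, gave 0.77, FDR = 3.63e-04 and 0.82, FDR = 7.62e-05. Tal1, a transcription factor of blood and vessel cells, rose in KO mice (0.78, FDR = 0.00338) and Adgrl4, an adhesion receptor of endothelium, in WT mice (0.42, FDR = 0.00456). The list's median log2 fold change was 0.11 for miR-34a loss in Tg-SwDI mice, -0.09 for the transgene in WT mice and 0.09 in KO mice.

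Of 29 barrier and Wnt genes, 2 were called higher with miR-34a loss in Tg-SwDI mice, 1 higher with the transgene in WT mice and 7 higher in KO mice, with none lower. Apcdd1, a Wnt target of barrier endothelium, rose with miR-34a loss in Tg-SwDI mice (0.46, FDR = 0.00177) and with the transgene in KO mice (0.31, FDR = 0.00228). F11r (JAM-A), a junction protein that microglia also express, gave 0.57, FDR = 0.0114 in WT and 1.34, FDR = 9.20e-08 in KO mice. The efflux pumps Abcb1b and Abcc4 rose in KO mice (0.70, FDR = 2.08e-04 and 0.34, FDR = 0.0134). The list's median log2 fold change was 0.12 for miR-34a loss in Tg-SwDI mice, 0.00 for the transgene in WT mice and 0.24 in KO mice.

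Among 10 arterial genes Efnb2, an arterial ligand that neurons also make, was the gene called, falling with the transgene in KO mice (-0.29, FDR = 0.00235) and in the average over WT and KO mice (-0.23, FDR = 6.33e-04). The arterial level, like that of smooth muscle, was highest in mouse 2 of KO Non-Tg (0.55). Vegfc, Gja4 and Bmx were not called, with lowest FDR values of 0.0918, 0.127 and 0.183 over the 6 contrasts. The list's median log2 fold change was 0.22 for miR-34a loss in Tg-SwDI mice, -0.17 for the transgene in WT mice and -0.04 in KO mice.

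Of 13 genes of inflamed endothelium, 11 were tested, 2 rose with the transgene in WT mice and 3 in KO mice, and 1, Apln, fell with miR-34a loss in Tg-SwDI mice (-0.40, FDR = 0.021). Ch25h, which makes 25-hydroxycholesterol in endothelium and microglia, gave 2.29, FDR = 2.69e-06 in WT and 3.02, FDR = 1.23e-08 in KO mice. Lcn2, a secreted acute-phase protein, gave 2.16, FDR = 0.00506 and 2.43, FDR = 4.01e-04. Sele, the endothelial selectin, did not pass the filter and had 0 counts in all 5 KO Non-Tg mice. The list's median log2 fold change was 0.07 for miR-34a loss in Tg-SwDI mice, 0.24 for the transgene in WT mice and 0.11 in KO mice.

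Of 13 other pericyte genes, 12 were tested and 2 rose with the transgene in KO mice: Cspg4 (NG2), which oligodendrocyte precursors also express (0.29, FDR = 0.0049), and Art3 (0.37, FDR = 0.0408). Ebf1 and Ndufa4l2 were not called, with 0.60, FDR = 0.0622 and 0.40, FDR = 0.225 for KO against WT in Tg-SwDI mice. Of 15 other smooth muscle genes, 13 were tested, and Crip1 rose in KO mice (0.58, FDR = 0.0048), while Synpo2 rose in the average over WT and KO mice (0.29, FDR = 0.0264). Mylk and Mustn1 were not called (0.31, FDR = 0.117 and 0.57, FDR = 0.258 for miR-34a loss in Tg-SwDI mice). For that comparison the median was 0.16 over the other pericyte genes and 0.32 over the other smooth muscle genes.

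Of 14 vessel signalling genes, 2 rose and 1 fell with miR-34a loss in Tg-SwDI mice, 3 rose with the transgene in WT mice, and 6 rose and 1 fell in KO mice. Vegfa, the growth factor read by Kdr and Flt1, rose with the transgene in WT mice (0.47, FDR = 0.00682) and fell with miR-34a loss in Tg-SwDI mice (-0.52, FDR = 0.0145). Tgfb1 and its receptor Tgfbr2, both strongly expressed by microglia, rose with the transgene in WT (1.09, FDR = 2.21e-07 and 0.97, FDR = 8.46e-07) and KO mice (1.89, FDR = 5.68e-12 and 1.51, FDR = 3.33e-10). Angpt1, the ligand of Tek, rose in KO mice (0.71, FDR = 1.94e-04). Of 12 basement membrane genes, 1 rose in WT and 2 in KO mice: Sparc, which microglia and astrocytes also make (0.21, FDR = 0.0253 and 0.53, FDR = 7.12e-08), and Nid2 in KO mice (1.04, FDR = 0.0382). Lama5 and Lamc1 were not called, with lowest FDR values of 0.0945 and 0.193. In KO mice the transgene's median was 0.18 over the signalling genes and 0.12 over the basement membrane genes.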

How the data were processed

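Per the labels and the study's methods, the authors aligned DNBSEQ reads of stranded mRNA libraries with STAR to mm10 and counted reads per gene with featureCounts, and the deposited values are raw counts (versions are not given in the sources used here). All 20 libraries were used, and their totals lay between 19549622 and 21066868. Of 39056 gene identifiers, 99.5% matched GENCODE M21, which gave positions, exon lengths and 3′ UTRs. The 39 genes and all other lists were chosen with earlier results of these data known. Genes were kept by edgeR's filter (minimum count 10, total 15), scaled by TMM and fitted with edgeR 4.0.16 in R 4.3.3 as 4 group means with robust quasi-likelihood dispersions (16 residual degrees of freedom). The 6 contrasts were tested over 16107 genes with Benjamini-Hochberg adjustment and a threshold of 0.05. Levels are mean log2 CPM with a prior count of 2, centred on the 20 mice. Script steps were tested on simulated data. Genes described in full are those called in any contrast plus Cldn5, Pecam1, Pdgfrb and Acta2, and at most 4 genes of lowest FDR were named from each other list. Alternatives were edgeR's exact test, DESeq2 1.42.0, other scalings and filters, a replicate block, choroid plexus or meningeal covariates, and each mouse left out. Chosen after seeing the data were the removal of GC and length trends, the split by Ttr and the exact test within the compared groups. The microRNA itself was not analysed here. The values of 1 gene counted in the list of inflamed endothelium are not reported here.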

Additional observations from a re-analysis of the deposited data

Results flagged for a closer look

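Over the 39 genes and 4 groups, 156 sets of 5 mice were checked for a mouse far from the others by Dixon's criterion, which chance meets in about 1 in 20, and 10 were found in 8 genes. In KO Tg-SwDI mice, Plvap stood at 23.0 CPM in mouse 8 against 10.2 to 13.3 in the others, Tek at 11.5 CPM in mouse 8 against 14.2 to 15.1, and Notch3 at 16.2 CPM in mouse 5 against 19.6 to 20.2. In WT Tg-SwDI mice, Cdh5 stood at 16.9 CPM in mouse 6 against 12.8 to 13.8, Pdgfrb at 28.0 CPM in mouse 6 against 23.6 to 24.2, and Bsg at 369 CPM in mouse 7 against 439 to 463. In KO Non-Tg mice, Vwf stood at 35.7 CPM in mouse 2 against 11.8 to 18.3, Plvap at 7.96 CPM in mouse 4 against 9.59 to 10.1, and Abcc9 at 8.16 CPM in mouse 4 against 9.42 to 9.72. In WT Non-Tg mice, Plvap stood at 11.7 CPM in mouse 4 against 10.2 to 10.5.

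Of the genes named, Tgfb1 was the one for which the effect of the transgene differed between KO and WT mice by the test of the interaction, with a log2 difference of 0.80 (FDR = 0.022 by edgeR's quasi-likelihood test).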

How the results depend on the processing

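Of the 39 genes, 4 were called for KO against WT in Tg-SwDI mice, against 8 by DESeq2, 7 by the exact test within the compared groups, 1 with the replicate block, 1 in the libraries with Ttr above 1000 CPM and 0 in those below, where 1 mouse of each group was left. For the transgene in WT mice 6 were called, against 0 and 1 in the libraries above and below 1000 CPM. For the transgene in KO mice 10 were called, against 1 with the choroid plexus covariate and 3 below 1000 CPM, where 1 KO Tg-SwDI mouse was left. Such lone mice were assumed to vary like the other groups. Averaged over WT and KO mice 6 were called, against 10 with the meningeal covariate. For the interaction 0 were called, against 6 by DESeq2 (beside 2.99% of all genes) and 2 with no filter (beside 0.429%). Leaving out each mouse gave 3 to 6, 0 to 0 (KO against WT in Non-Tg mice), 3 to 7 (3 without WT Non-Tg mouse 4), 8 to 12, 5 to 9 and 0 to 4 (4 without KO Tg-SwDI mouse 2) calls for the contrasts in the order KO against WT in Tg-SwDI and Non-Tg mice, transgene in WT and KO mice, average and interaction. Over all genes, the 320 calls for KO against WT in Tg-SwDI mice became 733 by DESeq2, 58 within the compared groups, 8 with the replicate block, 183 with GC and length trends removed, 562 and 208 with the choroid plexus and meningeal covariates, and 26 and 71 above and below 1000 CPM. The 3351 calls for the transgene in KO mice became 1192 with the choroid plexus covariate and 1489 below 1000 CPM, and the 98 of the interaction became 482 by DESeq2. With the mouse number as a replicate block the FDR for miR-34a loss in Tg-SwDI mice was 0.189 for Ly6c1, 0.01 for Itm2a, 0.127 for Gkn3 and 0.279 for Notch3. The mice of different groups share only a number: of 16 same-number pairs 2 had a correlation of deviations over 0.1, and 1 of 20 mice correlated best with its own number. For the fold changes called and the endothelial and mural levels, 641 values under alternatives kept direction and call or moved by less than 1 SD, and 93 lost the call with the same direction. Of the fold changes not called, that of Slco1c1 in the average reversed to -0.22 (FDR = 0.0336) in the libraries with Ttr below 1000 CPM. The causes of these differences were not tested, and the split fits also held fewer mice. No library repeated another (highest correlation 0.994).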
